A study of Homo sapiens with 6 samples.

Results

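The APOBEC3 family comprises 7 human genes, APOBEC3A, APOBEC3B, APOBEC3C, APOBEC3D, APOBEC3F, APOBEC3G and APOBEC3H, which lie side by side on chromosome 22. Members were taken as every probe set on the array whose platform annotation names exactly 1 gene symbol and that symbol is in the family. This gave 7 probe sets of 5 genes among 41091 probe sets with exactly 1 symbol: 1 each for APOBEC3B, APOBEC3C and APOBEC3D and 2 each for APOBEC3F and APOBEC3G. APOBEC3A was listed only on a probe set shared with the deletion hybrid APOBEC3A_B, and another probe set was listed for both APOBEC3F and APOBEC3G; these 2 are described separately. APOBEC3H had no probe set with its symbol in the annotation used and was not analysed here.

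APOBEC3 proteins turn cytosine into uracil in single-stranded DNA. Within cells they restrict retroviruses and mobile elements, and in tumours some of them leave C-to-T mutations in the genome. Several family members are known to be induced by interferon in monocytes and macrophages, and APOBEC3B is known for its expression in proliferating tumour cells.

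The cells were THP1, an established line from a monocytic acute myeloid leukaemia, cultured for 48 hours either on plates coated with Dll4-Fc, an Fc fusion of the Notch ligand Delta-like 4, or without it. Each condition had 3 samples, each hybridised to 1 Affymetrix U133 Plus 2.0 array. The sample labels call the controls untreated while the protocol speaks of vehicle, and the coating is given as 60 nM in the sample labels and 30 nM in the protocol. No Fc-only coating is named. Nothing in the labels says that samples of a group were separate cultures, so the p-values rest on a spread between samples that may be technical only. The study's title poses the question of how Notch activation acts on the homeostasis and differentiation of leukaemia cells.

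Pearson correlations across genes lay between 0.997 and 0.999 for array pairs from 1 group, and from 0.981 to 0.985 for pairs from both. Of 10 measured monocyte and macrophage markers, 8 were higher with Dll4-Fc and 0 were lower by limma, also at an unadjusted p under 0.05, where 9 were higher. Over all genes, 26.6% passed (11.6% higher and 15% lower). The mean log2 signal of the 10 markers was 8.96 to 9.02 on the Dll4-Fc arrays and 7.29 to 7.44 on the untreated arrays. CD14, a defining monocyte marker, averaged 10.62 on the Dll4-Fc arrays and 4.98 on the untreated arrays, and the untreated level was below the median of all probe sets, 5.70. Of 11 measured T, B and NK cell markers, 0 passed limma's test, also at an unadjusted p under 0.05; 7 of them lay below the median signal, where 5.06% of all probe sets passed. The mean log2 signal of the 11 was 5.19 to 5.32 on the Dll4-Fc arrays and 5.22 to 5.27 on the untreated arrays.

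The family did not move as a block: on Dll4-Fc the APOBEC3G probe set 204205_at was higher, and those of APOBEC3B and APOBEC3C were lower. The other APOBEC3G probe set and those of APOBEC3D and APOBEC3F did not pass the test. The APOBEC3C call was lost in 7 of the 13 alternatives run for it. Each probe set was tested with limma on log2 signals, with Benjamini-Hochberg adjustment across the 54613 probe sets and a threshold of 0.05. Of the 7 APOBEC3 probe sets 3 passed, 1 higher and 2 lower, or 42.9%, where 16.5% of all probe sets passed (7.21% higher and 9.26% lower). The groups did not overlap for the same 3, and for 33.2% of all probe sets. Over all probe sets 3937 were higher and 5059 lower, and after cyclic loess 4808 were higher and 4068 lower. Brighter probe sets passed more often: 27.9% of those at or above the median signal did, and 6 of the 7 APOBEC3 probe sets were that bright. The median difference of the 7 was 0.02, against -0.02 over all probe sets. In such bulk samples a lower signal cannot be divided into fewer cells that express a gene and less RNA per cell.

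**Figure D1:**
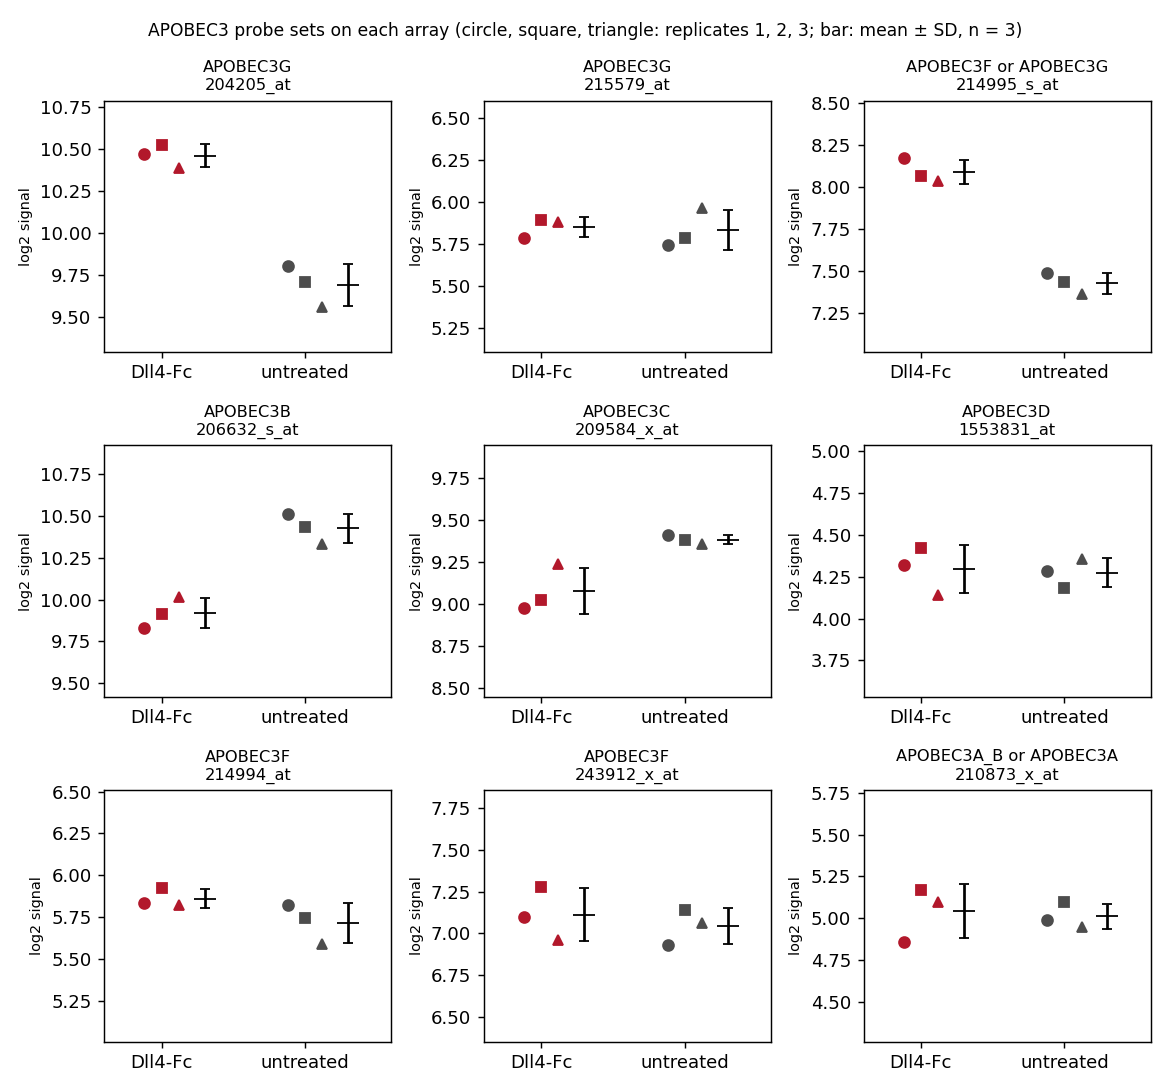
Log2 signal of each APOBEC3 probe set on the 6 arrays, with Dll4-Fc arrays in red on the left and untreated arrays in grey on the right of each panel; the bars are mean ± SD of 3 arrays, and every panel spans the same height. The groups are separate for the APOBEC3G probe set 204205_at, the shared APOBEC3F and APOBEC3G probe set, APOBEC3B and APOBEC3C, and they overlap or touch in the other panels.

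APOBEC3G encodes the deaminase that packages itself into HIV particles lacking the viral protein Vif and mutates the viral DNA. Its probe set 204205_at read 1420, 1472 and 1338 intensity units on the Dll4-Fc arrays, against 892, 837 and 753 units on the untreated arrays. All 3 Dll4-Fc arrays lay above all 3 untreated arrays. The log2 signal averaged 10.46 ± 0.07 with Dll4-Fc and 9.69 ± 0.12 without it (SD, n = 3 each), a rise of 0.77 ± 0.08 (SE), or 1.71-fold, with a 95% interval of 0.58 to 0.96 and a limma adjusted p of 0.00054. Of all probe sets, 96.7% differed by less in either direction. The difference stayed between 0.71 and 0.83 and passed under each of the 13 alternatives run for it, including the removal of each array in turn.

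The other APOBEC3G probe set, 215579_at, did not share that rise. It read 55.0, 59.4 and 58.9 units with Dll4-Fc, against 53.6, 55.1 and 62.5 units in untreated cells, and the groups overlapped. The difference was 0.02 ± 0.08 on the log2 scale (SE, n = 3 each), with a 95% interval of -0.16 to 0.20 and a limma adjusted p of 0.915. That interval does not reach the lower bound of 204205_at, 0.58. With a mean log2 signal of 5.84, the probe set lay close to the median of all probe sets, and 204205_at was brighter than 90.7% of probe sets. The part of this gap in signal in the disagreement was not tested.

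APOBEC3B encodes a nuclear deaminase that acts on the cell's own DNA in many cancers. Its probe set 206632_s_at read 911, 963 and 1035 units with Dll4-Fc, against 1456, 1384 and 1290 units in untreated cells, so that every Dll4-Fc array was below every untreated array. The log2 signal averaged 9.92 ± 0.09 with Dll4-Fc and 10.43 ± 0.09 without it (SD, n = 3 each). It fell by 0.51 ± 0.08 on the log2 scale (SE), or 1.42-fold, with a limma adjusted p of 0.00359. The 95% interval of the ratio was 0.621 to 0.798. The fall passed under each of its 13 alternatives, with differences of -0.55 to -0.45. The suffix of this probe set marks it as shared between transcripts, and APOBEC3 genes resemble one another in sequence, so a part of its signal from a relative was not tested.

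APOBEC3C, a broadly expressed member with a single deaminase domain, was lower by a smaller amount. The probe set 209584_x_at read 505, 521 and 603 units with Dll4-Fc, against 682, 668 and 656 units in untreated cells. The groups did not overlap, but Dll4-Fc replicate 3 lay closer to the untreated arrays than the other Dll4-Fc arrays did. The difference was -0.30 ± 0.08 (SE, n = 3 each), or 1.24-fold lower, with a 95% interval of -0.49 to -0.12 and a limma adjusted p of 0.0401. The call was lost without Dll4-Fc replicate 1 (limma adjusted p = 0.144), Dll4-Fc replicate 2 (0.133), untreated replicate 1 (0.110), untreated replicate 2 (0.110) or untreated replicate 3 (0.0599), and after cyclic loess between arrays (0.0640). The direction was the same in all 13 alternatives run for it, with differences of -0.38 to -0.24. The suffix of this probe set marks possible cross-hybridisation to other transcripts.

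APOBEC3D and APOBEC3F, both with a pair of deaminase domains and both able to restrict HIV, gave no call. APOBEC3D, on probe set 1553831_at, read 19.99, 21.4 and 17.7 units with Dll4-Fc, against 19.5, 18.1 and 20.5 units in untreated cells. The groups overlapped, the difference was 0.02 ± 0.09 (SE, n = 3 each), and the 95% interval was -0.18 to 0.23 (limma adjusted p = 0.915). Only 25.9% of probe sets were dimmer, so the probe set gives little basis for a statement on APOBEC3D in either group. Of the 7 members it was the only one below the median signal.

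For APOBEC3F, probe set 243912_x_at read 137, 155 and 124 units with Dll4-Fc, against 122, 141 and 134 units in untreated cells, with overlapping groups and a difference of 0.07 ± 0.10 (95% interval -0.16 to 0.29, limma adjusted p = 0.738, n = 3 each). The dimmer 214994_at read 57.1, 60.8 and 56.5 units with Dll4-Fc, against 56.5, 53.6 and 48.1 units in untreated cells. Its Dll4-Fc arrays were at or above the highest untreated array, with a difference of 0.14 ± 0.08 (95% interval -0.04 to 0.33, limma adjusted p = 0.303). The suffix of 243912_x_at marks possible cross-hybridisation, and 214994_at lay near the median signal, so these intervals describe the probe sets and set no firm limit on APOBEC3F RNA.

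The probe set listed for APOBEC3F and APOBEC3G together, 214995_s_at, had a clear difference that neither gene can be credited with from the annotation. It read 289, 267 and 262 units on the Dll4-Fc arrays, against 179, 173 and 164 units on the untreated arrays, with no overlap. The rise was 0.66 ± 0.07 (SE, n = 3 each), or 1.59-fold, with a 95% interval of 0.50 to 0.83 and a limma adjusted p of 0.00052. This interval overlaps that of the APOBEC3G probe set 204205_at, 0.58 to 0.96. It lies above those of both APOBEC3F probe sets and of the other APOBEC3G probe set, 215579_at (-0.16 to 0.20).

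APOBEC3A, a deaminase known from monocytes and strongly induced there by interferon, could be followed only through the probe set it shares with APOBEC3A_B, 210873_x_at. That probe set read 29.0, 35.9 and 34.3 units with Dll4-Fc, against 31.8, 34.2 and 30.9 units in untreated cells. The groups overlapped and the difference was 0.03 ± 0.09 (95% interval -0.18 to 0.25, limma adjusted p = 0.885, n = 3 each). Its signal was low, with 38.9% of probe sets dimmer.

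**Figure D2:**
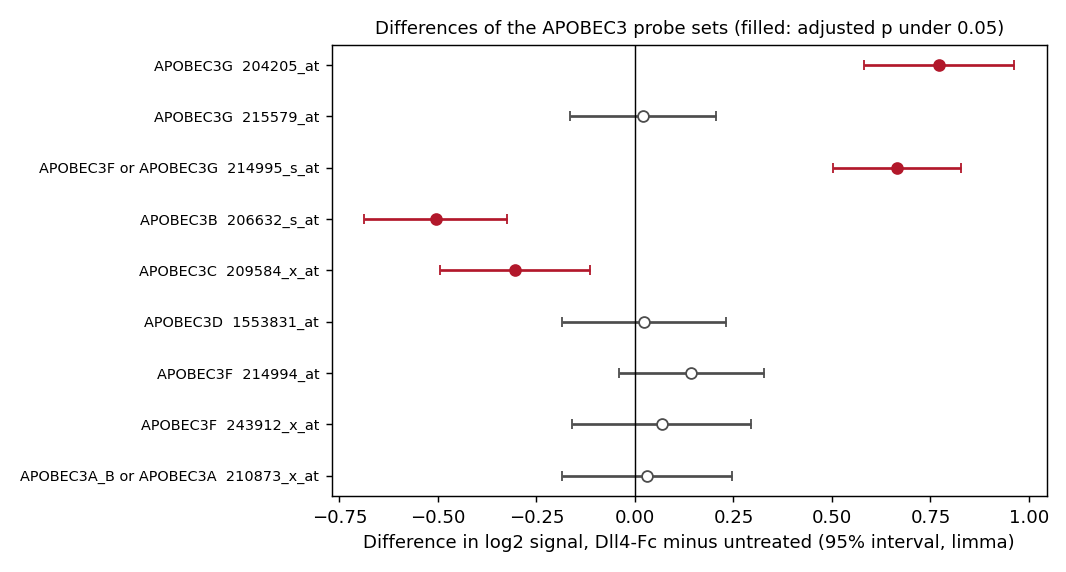
Difference in log2 signal between the Dll4-Fc and untreated arrays for the 7 APOBEC3 probe sets and the 2 listed for several symbols, with 95% intervals from limma (n = 3 arrays per group); filled points passed at an adjusted p under 0.05. The APOBEC3G probe set 204205_at (0.77) and the shared probe set (0.66) lie right of 0, APOBEC3B (-0.51) and APOBEC3C (-0.30) lie left of it, and the other intervals include 0.

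The balance between family members within an array is free of any constant scaling factor of that array, though not of scaling that depends on signal. The log2 signal of APOBEC3G (204205_at) minus that of APOBEC3B was 0.64, 0.61 and 0.37 on the Dll4-Fc arrays and -0.71, -0.73 and -0.78 on the untreated arrays. The ratio of APOBEC3G to APOBEC3B signal was thus 2.42-fold higher with Dll4-Fc, and no array of one group came near those of the other. Against APOBEC3C, the APOBEC3G signal ratio was 2.11-fold higher with Dll4-Fc (1.38 ± 0.20 with Dll4-Fc and 0.30 ± 0.10 without it, log2, SD, n = 3 each). The ratio of APOBEC3B to APOBEC3C was 1.15-fold lower, at 0.84 ± 0.06 with Dll4-Fc and 1.04 ± 0.06 without it. These levels mix the sensitivities of different probe sets, so only their change between groups carries information. The 3 probe sets compared were those that had passed, so these ratios are a description with no test.

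Genes beside the cluster on the chromosome also differed in both directions. For these neighbours and for the lists below, each gene was represented by its probe set with the highest mean, and p-values were adjusted over 19775 genes, of which 11.6% were called higher and 15% lower. Of the 6 nearest measured protein-coding genes on each side, 3 were higher and 4 lower. The groups did not overlap for 8 of these 12 neighbours, against 41.6% of all genes. CBX6, the nearest measured gene before APOBEC3A, and CBX7, the nearest after APOBEC3H, encode chromobox subunits of Polycomb complexes. CBX6 read log2 signals of 9.87, 9.88 and 9.80 with Dll4-Fc, against 10.34, 10.29 and 10.31 in untreated cells, and fell by 0.46 ± 0.05 (SE, n = 3 each, limma adjusted p = 0.000626). CBX7 fell by 0.58 ± 0.10 (limma adjusted p = 0.00369). SYNGR1, a synaptic vesicle protein gene further along, fell by 0.94 ± 0.05 (limma adjusted p = 2.21e-05). Of the 12 neighbours, 0 were higher by as much as APOBEC3G.

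The other neighbours that passed changed by 0.25 on the log2 scale or less. GTPBP1 (0.25), SUN2 (0.23) and JOSD1 (0.22) were higher and DNAL4 (-0.22) was lower, and each of these calls was lost when some array was left out. NPTXR (0.06), PDGFB (0.01), RPL3 (-0.15), TAB1 (0.00) and MGAT3 (0.08) did not pass. The 7 calls became 3 without Dll4-Fc replicate 2 and 4 without Dll4-Fc replicate 1, Dll4-Fc replicate 3 or untreated replicate 2, and the falls of CBX6, CBX7 and SYNGR1 held in every such fit. Without probe sets shared between transcripts, 3 of 10 measured neighbours were higher and 1 was lower.

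**Figure D3:**
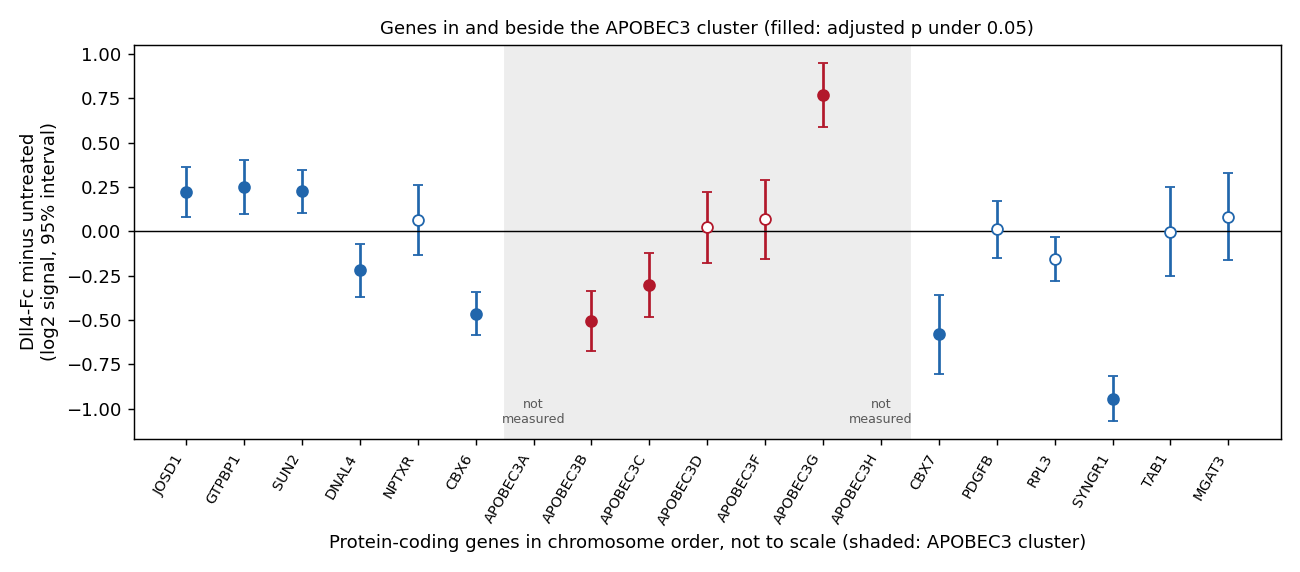
Difference in log2 signal, Dll4-Fc minus untreated, for protein-coding genes in chromosome order, with 95% intervals (limma, n = 3 arrays per group); APOBEC3 genes are red on a shaded ground, neighbours are blue, and filled points passed. APOBEC3G stands highest at 0.77, with APOBEC3F (0.07) before it and CBX7 (-0.58) the next measured gene after it; APOBEC3A and APOBEC3H have no value.

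Most measured genes of a list of other antiviral restriction factors rose. Of 22 measured genes of that list 18 rose and 0 fell (19 and 0 at an unadjusted limma p under 0.05). Over all genes, 11.6% were called higher and 15% lower. The median difference of the list was 1.29, against -0.01 over all genes. In this list 0 genes lay below the median signal, and brighter probe sets passed more often. This list, like the others, was chosen with earlier results of these data known, so its count only describes these genes. TRIM22, which blocks HIV transcription, rose by 6.37 ± 0.09, MX1, a GTPase that blocks influenza virus, by 5.53 ± 0.10, IFITM1, a membrane protein that hinders viral entry, by 3.29 ± 0.12, and HERC5, the ligase of the ubiquitin-like ISG15, by 2.80 ± 0.15 (SE, n = 3 each). TRIM22 averaged 4.66 on the untreated arrays, below the median signal of all probe sets, so the size of its rise is uncertain. SAMHD1, the nucleotide hydrolase that starves HIV of DNA precursors in myeloid cells, rose by 0.52 ± 0.05. MARCHF8 (-0.23), SERINC3 (-0.05), ZC3HAV1 (0.08) and SLFN11 (0.16) did not pass. Without probe sets shared between transcripts, 11 of 16 measured genes rose and 0 fell. Of the 22 genes 13 had a larger difference than APOBEC3G, and 22 of 22 had a larger one than APOBEC3B or APOBEC3C.

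Several receptor and response factor genes of interferon signalling rose, while no ligand gene passed. Of 22 measured genes 10 were higher and 1 was lower, IRF5 (-0.27). USP18, a feedback inhibitor of the interferon receptor, rose by 3.29 ± 0.13, IRF7, which amplifies interferon genes, by 2.65 ± 0.09, IRF9, the DNA-binding subunit of the factor ISGF3, by 1.74 ± 0.07, and the receptor chain gene IFNGR1 by 1.58 ± 0.06 (SE, n = 3 each). IRF1, an interferon-induced activator, differed by 0.34 ± 0.09 (limma adjusted p = 0.028), a call lost without Dll4-Fc replicate 1 or 2 or untreated replicate 2 or 3. The ligand genes IFNA1, IFNA2, IFNB1, IFNG and IFNL1 lay below the median signal, and 0 of 5 passed by limma or had an unadjusted p under 0.05 (IFNB1: a difference of 0.18 ± 0.11, limma adjusted p = 0.283). Without Dll4-Fc replicate 1 or Dll4-Fc replicate 2, 7 genes of this list passed, all higher. The part that interferon signalling has in the APOBEC3G rise was not tested.

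Genes linked to the control of APOBEC3B moved both ways. That list joins NF-kB and protein kinase C genes, among them the noncanonical NF-kB route that phorbol esters use to induce APOBEC3B, with other regulators. The other regulators include cell cycle complexes that repress APOBEC3B in resting cells, but also activators such as MYBL2. Of 22 measured genes 5 were higher and 6 lower, with a median of -0.01. CDKN1A, the cyclin-dependent kinase inhibitor p21, rose by 1.80 ± 0.06, the protein kinase C gene PRKCA by 0.70 ± 0.08, the NF-kB subunit gene RELB by 0.45 ± 0.07 and the retinoblastoma gene RB1 by 0.44 ± 0.06 (SE, n = 3 each). MAP3K14 was the other higher gene, at 0.28 ± 0.06 (limma adjusted p = 0.016), a call lost without Dll4-Fc replicate 2. Its mean log2 signal of 4.54 lay below the median of all probe sets. MYBL2, which encodes the cell cycle activator B-MYB, fell by 0.36 ± 0.06 (limma adjusted p = 0.00379). The 6 lower genes also included RBL2 (-0.28), TFDP1 (-0.25), FOXM1 (-0.25), RBBP4 (-0.22) and PRKCD (-0.21). The calls of RBL2, FOXM1, RBBP4 and PRKCD were each lost when some array was left out. In total 6 genes passed when Dll4-Fc replicate 2 was left out and 7 when untreated replicate 2 was. APOBEC3B had a lower difference than each of the 22. The part of these genes in its fall was not tested.

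**Figure D4:**
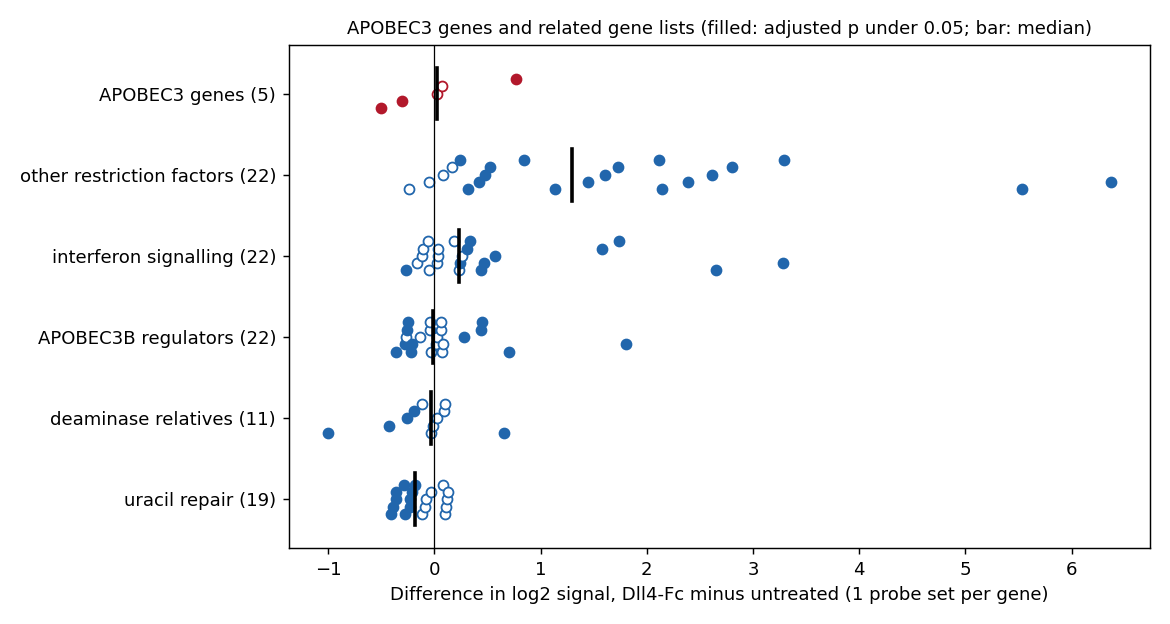
Difference in log2 signal, Dll4-Fc minus untreated, for the 5 measured APOBEC3 genes (red) and the members of 5 related lists (blue), 1 probe set per gene; filled points passed at an adjusted p under 0.05 and the bar is the list's median. The restriction factors have a median of 1.29 and reach 6.37, while the APOBEC3 genes span -0.51 to 0.77 around a median of 0.02.

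Among other deaminases, ADAR, which edits adenosine in double-stranded RNA and has an interferon-induced form, rose by 0.66 ± 0.05 (SE, n = 3 each, limma adjusted p = 9.29e-05). CDA, the cytidine deaminase of nucleoside salvage, fell by 1.00 ± 0.17 (limma adjusted p = 0.00439). The RNA editing gene ADARB1 (-0.43), CDADC1 (-0.25) and ADAT3 (-0.19), the last a subunit of the tRNA deaminase, were the other lower genes, although another ADARB1 probe set was higher. The ADAT3 call (limma adjusted p = 0.0486) was lost in 5 of the 6 fits without single arrays and after cyclic loess. For CDADC1 (limma adjusted p = 0.0172) the call was lost in 3 of those 6 fits. Of 11 measured genes 1 rose and 4 fell, and in total 3 passed without Dll4-Fc replicate 1, Dll4-Fc replicate 2 or untreated replicate 1. The probe sets of ADAR and ADARB1 are shared between transcripts, and without such probe sets 0 of 7 measured genes rose and 1 fell. APOBEC1 and APOBEC4, relatives with other tissue patterns, differed by -0.01 and -0.04 and did not pass.

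Uracil left in DNA by APOBEC3 enzymes is removed by base excision repair or copied into a mutation. Of 19 measured genes of uracil repair and single-strand protection 10 fell and 0 rose, with a median of -0.18. The counts were the same at an unadjusted limma p under 0.05, while over all genes 11.6% were called higher and 15% lower. In this list 0 genes lay below the median signal, and brighter probe sets passed more often. After cyclic loess, 8 genes of the list fell and 1 rose. RPA1, a subunit of the single-strand binding protein RPA, fell by 0.41 ± 0.06, the replicative ligase gene LIG1 by 0.39 ± 0.06, the uracil glycosylase gene UNG by 0.36 ± 0.05 and the mismatch repair gene MSH6 by 0.36 ± 0.06 (SE, n = 3 each). The glycosylase genes SMUG1 (-0.08), TDG (0.08) and MBD4 (0.12) did not pass. Leaving out Dll4-Fc replicate 1 or Dll4-Fc replicate 2 gave 5 falls, and leaving out untreated replicate 2 gave 6. APOBEC3B had a lower difference than all 19 of these genes, and APOBEC3C than 15 of them.

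The genes whose array profiles were closest to those of APOBEC3G and APOBEC3B were found by the root mean square distance between log2 profiles over the 6 arrays, each minus its own mean. Closest to APOBEC3G were RABAC1 (a distance of 0.02, with a difference of 0.76), the actin-binding ENC1 (0.02, 0.75), the histone gene H2BC12 (0.03, 0.76) and NQO1, a quinone reductase (0.03, 0.74). Closest to APOBEC3B were the adenylate kinase gene AK1 (a distance of 0.02, with a difference of -0.48), CCDC102A (0.02, -0.51), ITM2C (0.02, -0.48) and CDCA7L (0.03, -0.52). With 6 arrays in 2 groups, such a distance mostly reflects the size of the step between the groups.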

How the data were processed

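The deposited values are intensities on a linear scale, 1 per probe set and array, which the authors made with RMA (background correction, quantile normalization and probe summary), a tool the submitters' processing notes name without a version. The method damps changes in dim probe sets and hides changes in total RNA. Array medians were 50.6 to 52.7 intensity units, and the number of arrays limits the precision.

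Intensities were log2 transformed and 62 control probe sets were left out. Of 54613 probe sets, 41091 had exactly 1 symbol in the platform annotation, 1801 several and 11721 were not listed; symbols were checked by gene number against a GRCh38.p14 gene table, used for names and gene order only. Dll4-Fc was compared with untreated by limma 3.58.1 in R 4.3.3 (lmFit, eBayes, 2-sided, 4 residual degrees of freedom, Benjamini-Hochberg, threshold 0.05), per probe set for APOBEC3 and per gene for the lists. The procedure was run on simulated data with 50 planted differences of each size. It recovered 0 of those of 0.25, 14 of 0.5, 39 of 1 and 50 of 2 on the log2 scale. The simulation gave 103 calls in all, far fewer than the 8996 in the data, so these shares do not carry over directly. Named were all APOBEC3 probe sets, the neighbours, up to 4 passing members of each list with the largest change, genes fixed by name and members that spell out small counts. The members and lists were chosen with earlier results of these data known. Sequence features of the promoters and proteins were not analysed here.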

Additional observations from a re-analysis of the deposited data

Results flagged for a closer look

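The probe set listed for both APOBEC3F and APOBEC3G, 214995_s_at, lies outside the APOBEC3 probe sets with a single symbol, yet its signal was above that of the untreated arrays: the rise was 0.66 ± 0.07 on the log2 scale (SE, n = 3 arrays per group, limma adjusted p = 0.00052), with no overlap between the groups.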

How the results depend on the processing

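Across the 15 alternatives, the APOBEC3G rise (204205_at) and the APOBEC3B fall kept direction and call wherever they were run. The number of APOBEC3 probe sets that passed, 3, was 2 to 3 without single arrays and 1 of 4 without probe sets shared between transcripts, which removes APOBEC3B and APOBEC3C. The APOBEC3C difference was -0.38 to -0.25 without single arrays, with the call lost in 5 of 6, and -0.24 with cyclic loess, where it was also lost. Uncalled differences changed sign without single arrays: APOBEC3D ranged from -0.041 to 0.0988 (-0.0231 without untreated replicate 2), the APOBEC3F probe set 243912_x_at from -0.0147 to 0.145 and the APOBEC3G probe set 215579_at from -0.0236 to 0.0874 (-0.00367 without untreated replicate 2). Without single arrays, 5711 to 9419 of all probe sets passed (8996 with all arrays), and list counts were 3 to 5 (deaminase relatives), 5 to 9 (uracil repair), 7 to 10 (interferon signalling), 6 to 12 (APOBEC3B regulators), 0 to 1 (T, B and NK cell markers) and 3 to 5 (neighbours). Without shared probe sets the counts were 1 for deaminase relatives, 11 of 16 for restriction factors, 5 for monocyte markers and 4 for neighbours. With the mean of a gene's probe sets they were 2 for deaminase relatives and 1 for genes of non-blood tissues. That last list holds genes that a monocytic line should not express, and 0 of its 18 measured genes passed in the main comparison. Cyclic loess turned the share of higher calls from 43.8% to 54.2%.

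No pairing of samples by replicate number was evident: same-numbered arrays deviated from their group means with correlations of 0.01, -0.21 and -0.15. Not every array correlated best with its own number: Dll4-Fc replicate 2 did so with untreated replicate 3 (0.15) and Dll4-Fc replicate 3 with untreated replicate 2 (0.22). The replicate block given below groups arrays by number all the same. The labels do not state whether samples were paired, and deviations from means of 3 arrays cannot show that they were not. With the replicate block, 6489 probe sets passed, APOBEC3C gave -0.30 (limma adjusted p = 0.09), APOBEC3B and APOBEC3G passed, and the counts were 3 for deaminase relatives, 6 for uracil repair and 4 for neighbours.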
